A study of Morone chrysops x Morone saxatilis with 6 samples.

Results

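The 200 coding sequences described here stood lowest in both liver RNA pools numbered 1, relative to the 4 pools numbered 2 and 3, among those kept by the limits below. In all, 38047 coding sequences were counted in hybrid striped bass liver. Levels are given in CPM, a coding sequence's count scaled to a library total of 1000000. Leaving out the 100 rows of highest mean CPM, and keeping rows with a mean of 5 CPM or more over the pools numbered 2 and 3, left 11753 rows, called the ranked rows below. They were ranked by the lowest CPM of the 4 pools over the higher CPM of the pools numbered 1, with 0.5 added to each, and the first 200 were taken. These coding sequences were thus chosen by their CPM in the 6 pools, number 1 against numbers 2 and 3, and that difference is given as a description with no test.

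Hybrid striped bass come from crossing white bass and striped bass, here from domesticated lines of both. Fish of 44 half-sib families, 5632 tagged fingerlings in all, grew for 115 days in communal ponds, and liver was taken from the largest and from the smallest fish at harvest. The 6 libraries are 3 pools from large and 3 pools from small fish, with total RNA of several fish combined in equimolar amounts. The sources used here give neither sex, nor age beyond the pond period, nor how many fish went into a pool. All fish share the same kind of cross and ponds, and no treatment is labelled. The description labels number the pools 1 to 3 within each growth group without saying what a number stands for. Since the labels do not say how the pools were drawn, p-values measure only the spread between these pools.

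A fish liver secretes most plasma proteins, makes and stores fat and glycogen, produces egg yolk precursor in maturing females, and answers growth hormone by releasing insulin-like growth factor. Its transcripts are known to vary with feeding, sex, maturity and infection. In a hybrid, each gene is present as a copy from either parental species, and coding sequences of near-identical copies may share reads. The rows carry running numbers (HSB_liver_CDS followed by a number) and no gene names, so no role can be given to any member, and the liver label could not be checked against marker genes. In pooled bulk RNA, fewer cells of a type and less RNA per cell cannot be told apart.

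Depth differed between libraries and set how low a level could be read. Total counts were 5327580 and 8892682 in the large and small pools numbered 1, 4783800 and 2434421 in those numbered 2, and 19625891 and 3491954 in those numbered 3. Where a member had 0 counts, up to 3 counts remain possible, or 0.563 and 0.337 CPM in the large and small pools numbered 1. The pools numbered 1 were thus neither the deepest nor the shallowest.

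The 200 members together took a far smaller share of the counts in the pools numbered 1, as the choice required. They held 0.405% of the counts in the large pool numbered 1 (exact 95% binomial interval 0.40% to 0.41%) and 0.337% in the small pool numbered 1 (0.333% to 0.341%). The shares were 2.87% and 3.17% in the large and small pools numbered 2, and 4.24% and 4.37% in those numbered 3. PCR copies of 1 molecule are counted as separate reads, so these intervals cover only the error of counting. By growth group, the mean share was 2.50% ± 1.94 (SD, n = 3) in large and 2.63% ± 2.07 (SD, n = 3) in small fish. These wide SDs and the overlap of the growth groups follow from the choice, which set number 1 low in both. Within numbers 1, 2 and 3, the members' summed CPM in the large pool was 1.20, 0.906 and 0.969 times that in the small pool. The 10 members of highest mean CPM over all 6 pools together made up 39.6% and 40.9% of the members' total in the large and small pools numbered 1, against 38.5% and 40.2% in those numbered 2 and 41.7% and 43.8% in those numbered 3. The summed share of these 10 thus stayed within a narrow range, which does not say that each of them kept its own share of the members' total.

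**Figure D1:**
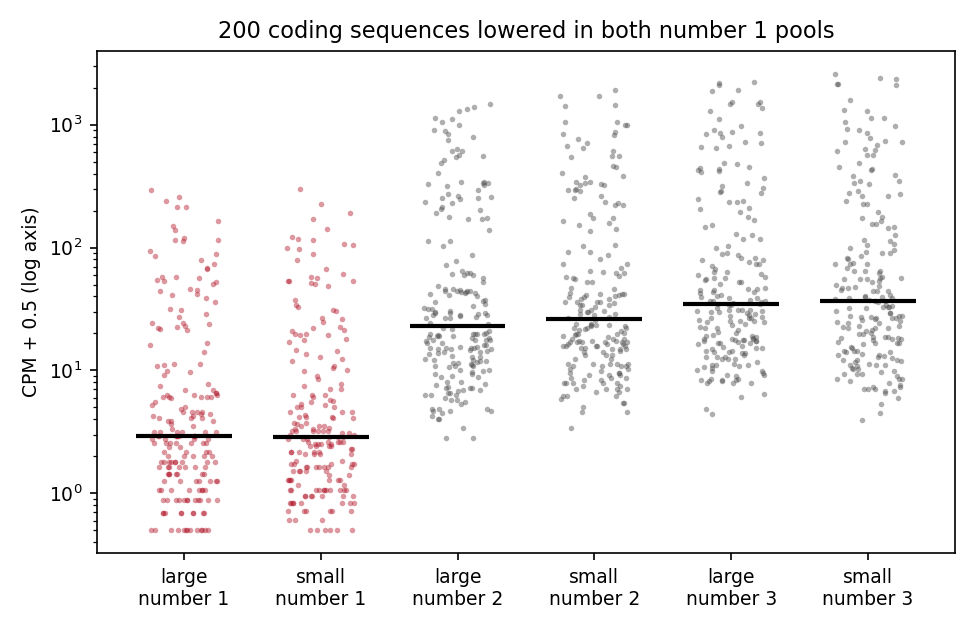
CPM plus 0.5 (log axis) of each of the 200 coding sequences (points) in the 6 pools, with the median as a bar. Medians were 2.44 and 2.36 CPM in the large and small pools numbered 1, against 22.4 and 25.9 CPM in those numbered 2 and 34.2 and 36.2 CPM in those numbered 3.

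The median member stood at 2.44 CPM in the large and 2.36 CPM in the small pool numbered 1, against 22.4 and 25.9 CPM in the large and small pools numbered 2 and 34.2 and 36.2 CPM in those numbered 3. A member's mean in the pools numbered 1 was between 0% and 19.7% of its mean in the other 4 pools, with a median of 8.39%, and 128 of the 200 were under 10%. On the log2(CPM + 0.5) scale, the median difference of number 1 from the mean of numbers 2 and 3 was -3.15 in large and -3.28 in small fish. Over all ranked rows the same median was 0.12 in large and -0.09 in small fish. The ranking ratio ran from 49.1 for the first member to 4.34 for the last, with a median of 5.75, and 22 members had a ratio of 10 or more. There was no gap at the limit: the last row inside had a ratio of 4.3398 and the first row outside 4.3389. Of the 11753 ranked rows, 3229 (27.5%) were lower in both pools numbered 1 than in all 4 others, so the 200 are the extreme end of a larger set.

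**Figure D2:**
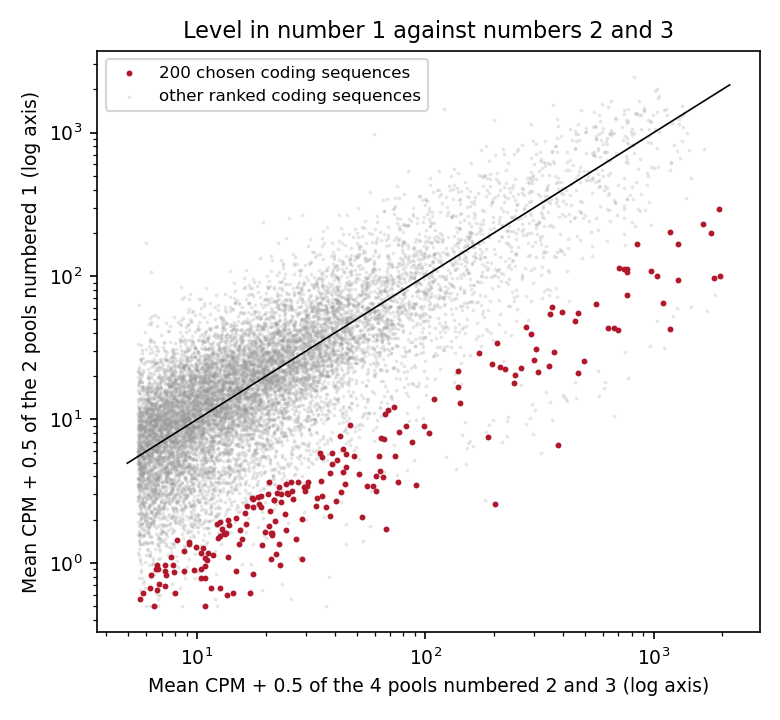
Mean CPM plus 0.5 of the pools numbered 1 (vertical, log axis) against that of the 4 pools numbered 2 and 3 (horizontal, log axis) for the 200 chosen coding sequences (red) and the other ranked rows (grey), with the line of equal levels. All red points lie below the line, as the choice fixed. Their means over the 4 pools run from 5.15 CPM to 1954 CPM before the 0.5 is added. Grey points beside them had a lower ratio of the lowest of the 4 pools to the higher of the pools numbered 1.

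HSB_liver_CDS_10699 ranked first. It stood at 6.38 CPM in the large and 5.85 CPM in the small pool numbered 1, against 337 and 338 CPM in the large and small pools numbered 2 and 426 and 427 CPM in those numbered 3. These values rest on 34 and 52 counts in the pools numbered 1, with exact Poisson intervals of 4.42 to 8.92 CPM and 4.37 to 7.67 CPM, and on 823 counts or more elsewhere. Large and small pools of a number lay within counting error of each other, and the pools numbered 1 were at 1.6% of the mean of the others.

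HSB_liver_CDS_27150, ranked second, had 1.31 CPM in the large and 2.81 CPM in the small pool numbered 1, against 140 and 163 CPM in those numbered 2 and 234 and 271 CPM in those numbered 3. Its 7 and 25 counts in the pools numbered 1 allow 0.528 to 2.71 CPM and 1.82 to 4.15 CPM. For this coding sequence the pools numbered 3 were also above those numbered 2, with no overlap.

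The members covered a wide range of levels. By their mean over the pools numbered 2 and 3, 71 stood under 20 CPM, 77 between 20 and 100 CPM and 52 at 100 CPM or more. In finer classes, 14% of members stood under 10 CPM and 21.5% from 10 to 20 CPM, against 33.6% and 27.0% of ranked rows. From 20 to 100 CPM the shares were 38.5% and 30.5%, from 100 to 1000 CPM 20.5% and 8.52%, and at 1000 CPM or more 5.5% and 0.434%. The list thus leaned to higher levels than the ranked rows. The 0.5 CPM added to both levels holds down the ratio more in rows of low level. The lean is thus in part set by the rule, and these shares describe the list and test nothing. HSB_liver_CDS_22309 and HSB_liver_CDS_36660 had the highest means over the pools numbered 2 and 3, 1954 and 1939 CPM. HSB_liver_CDS_36660 had 292 CPM in the large and 298 CPM in the small pool numbered 1, against 1335 and 1932 CPM in those numbered 2 and 2115 and 2374 CPM in those numbered 3. It was near the limit of the list by its ratio of 4.47, while HSB_liver_CDS_22309 had a ratio of 12.1. HSB_liver_CDS_22309 had 78.8 CPM in the large and 120 CPM in the small pool numbered 1, against 1467 and 1714 CPM in those numbered 2 and 2241 and 2393 CPM in those numbered 3. Both were singled out for their abundance after their values were seen.

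At the low end, depth limited what could be read in the pools numbered 1. Of the 200 members, 42 had 3 counts or fewer in the large and 23 in the small pool numbered 1, and 13 and 6 were at 0 there. In each of the 4 other pools 0 members were at 3 counts or fewer, which the choice fixed. A ratio of 4.34 or more needs a higher level there than 3 counts give, at most 1.23 CPM. The members at 0 in both pools numbered 1 were HSB_liver_CDS_20790 and HSB_liver_CDS_1223. HSB_liver_CDS_20790 had 42 and 40 counts in the large and small pools numbered 2 and 207 and 19 counts in those numbered 3, which is at least 22.9-fold higher when the mean of the 4 pools is set against a floor of 3 counts in each pool numbered 1. HSB_liver_CDS_1223 had 11 and 10 counts in the pools numbered 2 and 184 and 28 in those numbered 3, at least 13.2-fold higher by the mean on the same floor. With the lowest of the 4 pools set against the higher floor, the bounds were 9.66-fold for HSB_liver_CDS_20790 and 4.08-fold for HSB_liver_CDS_1223.

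Among the 4 pools numbered 2 and 3, the members varied about as much as other coding sequences. The highest of the 4 values was a median of 1.72 times the lowest over the members, against 1.75 times over all ranked rows, and it was under 2 times for 71.5% of members and 62.9% of ranked rows. The requirement of a high lowest value favours steady rows, so these shares describe the list and test nothing. The widest range was 7.65 times, in HSB_liver_CDS_3357. Across the 200 members, the log2(CPM + 0.5) levels of the large and small pools of a number correlated at a Pearson r of 0.96 for number 1, 0.98 for number 2 and 0.99 for number 3. Between numbers within a growth group, r was 0.96 for 1 with 2, 0.94 for 1 with 3 and 0.98 for 2 with 3 in large fish. In small fish it was 0.94, 0.93 and 0.97. A high r was thus not particular to pools that share a number. These values are across coding sequences, which are not independent, in libraries that share 1 set of reference sequences and differ in depth.

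The rule did not set number 3 against number 2, though its limit and ratio used the values of these 4 pools. Most members were higher in number 3. The lowest of the 4 values was that of the large pool numbered 2 for 119 members and of the small pool numbered 2 for 63. All members share these 4 libraries, so the counts of members below are not independent observations. The part of the choice in this order was not tested. In the large pools 189 of 200 members were higher in number 3 than in number 2, and in the small pools 162 were. Both held for 154 members, where 31.4% of ranked rows did so, and 3 members were lower in number 3 in both growth groups, where 31.2% of ranked rows were. Both pools numbered 3 lay above both pools numbered 2, with no overlap, for 131 members (65.5%), against 23.1% of ranked rows. The opposite order held for 2 members (1%), against 23.5% of ranked rows. The median difference, number 3 minus number 2 on the log2(CPM + 0.5) scale, was 0.53 in large and 0.39 in small fish over the members, and 0.02 in large and -0.02 in small fish over all ranked rows. Within each growth group the pool numbered 3 was also deeper than the pool numbered 2. The totals were 19625891 against 4783800 counts in large fish and 3491954 against 2434421 in small fish. Across growth groups, the small pool numbered 3 was shallower than the large pool numbered 2. The part of depth in the difference between numbers 3 and 2 was not tested.

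The size of this difference was modest and few members passed a test of their own. Fitted on the whole table by edgeR's quasi-likelihood test with terms for growth and number, 186 of the 200 members (93%) had a positive log2 fold change of number 3 over number 2, with a median of 0.44, against 50.3% of all 20203 tested coding sequences with a median of 0.00. With Benjamini-Hochberg adjustment over all tested rows, 1 member was higher in number 3 at an adjusted p under 0.05, where 0.297% of all tested coding sequences were called higher, and 0 members were lower, where 0.0148% were. That single call is a share of 0.5%, near the background. At an unadjusted p under 0.05 there were 49 members (24.5%), against 9.82% of all tested coding sequences and 12.0% of the ranked rows tested. The choice favours steady rows, and the fit takes part of its spread from the pools numbered 1, whose values the rule used. The part of the choice in these p-values was not tested. DESeq2 called 3 members higher and 0 lower, where it called 0.291% and 0.261% of all 37503 coding sequences. Of these, 20359 got no adjusted p and could not be called. Among the 11753 ranked rows DESeq2 called 99 higher and 70 lower. Under an unadjusted 0.05 it had 25 members (12.5%), against 3.79% of all coding sequences and 7.35% of ranked rows.

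HSB_liver_CDS_35976 was the member called by both tools. It had 1516 CPM in the large and 2148 CPM in the small pool numbered 3, against 341 and 385 CPM in those numbered 2, with 73.0 and 55.7 CPM in those numbered 1. Its log2 fold change of number 3 over number 2 was 2.32 (SE 0.23, edgeR adjusted p = 0.042). The adjusted p was 0.065 on total counts without TMM scaling, and the call was lost without any 1 of the 4 libraries numbered 2 or 3, with adjusted p-values of 0.16 without large library 2, 0.12 without large library 3, 0.15 without small library 2 and 0.16 without small library 3, at log2 fold changes of 2.06 to 2.58. Each of these fits leaves 1 library of a number, which is assumed to vary like the others. For HSB_liver_CDS_35976 DESeq2 gave a log2 fold change of 2.32 (SE 0.28, adjusted p = 2.2e-14). DESeq2 also called HSB_liver_CDS_15455 (log2 fold change 1.45, SE 0.37, adjusted p = 0.013) and HSB_liver_CDS_37886 (0.89, SE 0.26, adjusted p = 0.0499). For HSB_liver_CDS_15455 and HSB_liver_CDS_37886 edgeR gave adjusted p-values of 0.14 and 0.34. HSB_liver_CDS_15455 had 90.4 CPM in the large and 99.1 CPM in the small pool numbered 3, against 31.6 and 37.4 CPM in those numbered 2. In neither did the pools of the 2 numbers overlap. These 3 are named because they passed the threshold, after their values were seen.

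**Figure D3:**
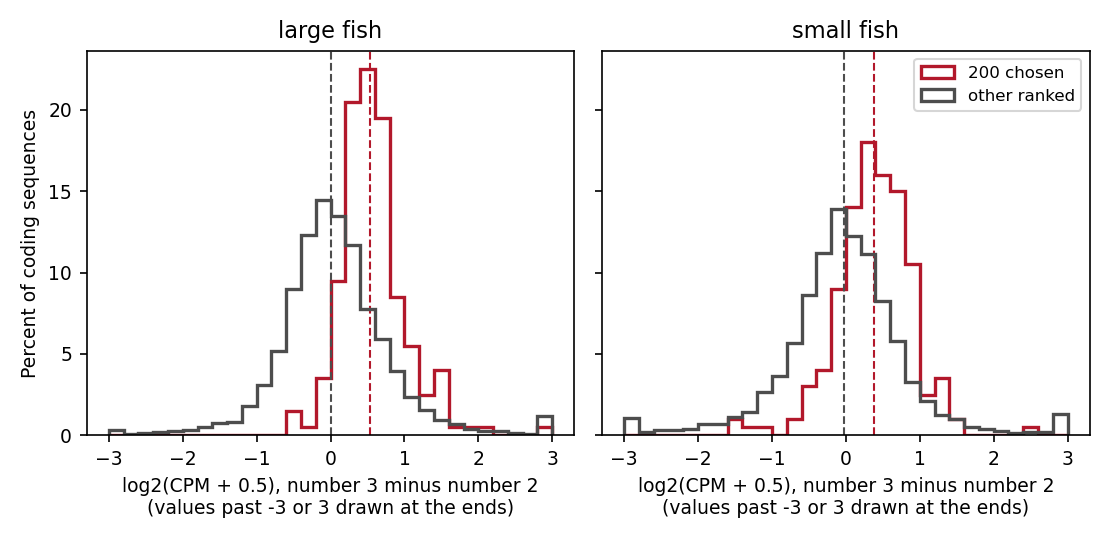
Share of coding sequences (vertical, percent) by the difference of log2(CPM + 0.5) between numbers 3 and 2 (horizontal) in large fish (left) and small fish (right), for the 200 chosen coding sequences (red) and the other ranked rows (grey), with dashed medians. The red medians are 0.53 in large and 0.39 in small fish, and the grey ones lie close to 0.

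A median of number 3 above number 2 was found at all levels of abundance within the list and continued past its limit. That number 1 stood lowest was fixed by the ranking, for the members and for the further rows up to rank 3000. On the log2(CPM + 0.5) scale, averaged over growth groups, number 3 exceeded number 2 by a median of 0.38 for the 71 members under 20 CPM, 0.54 for the 77 between 20 and 100 CPM and 0.41 for the 52 at 100 CPM or more, and 61, 74 and 51 of them had a positive difference. Ranked rows outside the list had medians of 0.03, -0.04 and -0.13 in these classes. By rank, the median was 0.54 for the first 50 members, 0.40 and 0.46 for the next 2 sets of 50, and 0.36 for the last 50. It was 0.43 for rows ranked 201 to 400, 0.34 for rows ranked 401 to 1000 and 0.16 for rows ranked 1001 to 3000. A difference of similar size between numbers 3 and 2 was thus also present in rows just outside the list, and of these rank classes, which end at rank 3000, the last had the smallest median.

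Between large and small fish, the contrast of the study's design, no member passed a test. By edgeR's quasi-likelihood test without the replicate number, 0 of 200 members were called in either direction at an adjusted p under 0.05, as were 0% of 18135 tested coding sequences, and 0 members lay under an unadjusted p of 0.05, against 1.07% of all tested. All 200 members passed the filter on low counts. Number 1 stands apart from numbers 2 and 3 in both growth groups by choice of the members, and this difference enters the spread within each group in that fit. The choice also favours rows whose large and small pools lie close, which bears on every fit. Calls of 0 members thus do not show that the members are alike in large and small fish. Blocked on replicate number, edgeR again called 0 members, and 10 (5%) lay under an unadjusted 0.05, against 5.0% of all tested coding sequences. DESeq2 called 0 members in either fit, with 4 members (2%) under an unadjusted 0.05 when blocked, against 2.15% of all coding sequences, and 0 when not, against 1.25%. The blocked DESeq2 fit called 0.0667% of all 37503 coding sequences higher and 0.0693% lower in large fish. Of these, 19632 got no adjusted p and could not be called. Among the 11753 ranked rows that fit called 19 higher and 21 lower, with 3.91% under an unadjusted 0.05.

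The large-minus-small difference of the list was small within each number and changed sign between them. On the log2(CPM + 0.5) scale its median over the members was 0.10 for number 1, -0.17 for number 2 and 0.00 for number 3, with 117, 71 and 101 of the 200 higher in large fish. Over all ranked rows the medians were 0.08, -0.13 and -0.10. A member was over 2-fold apart between large and small pools in 18, 9 and 6 cases. The share of members was thus 9%, 4.5% and 3%, against 9.97%, 14.2% and 8.17% of ranked rows. At given mean levels, a gap between large and small pools lowers the ranking ratio. The rule thus favours rows whose large and small pools lie close, and these shares describe the list and test nothing. Large exceeded small within all 3 numbers for 26 members (13%), against 10.8% of ranked rows, and was below small within all 3 for 31 members (15.5%), against 17.5% of ranked rows. Both shares are near the background. The median edgeR log2 fold change over the members was 0.10 without and 0.04 with the block, and -0.02 on total counts alone, so no direction can be given.

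**Figure D4:**
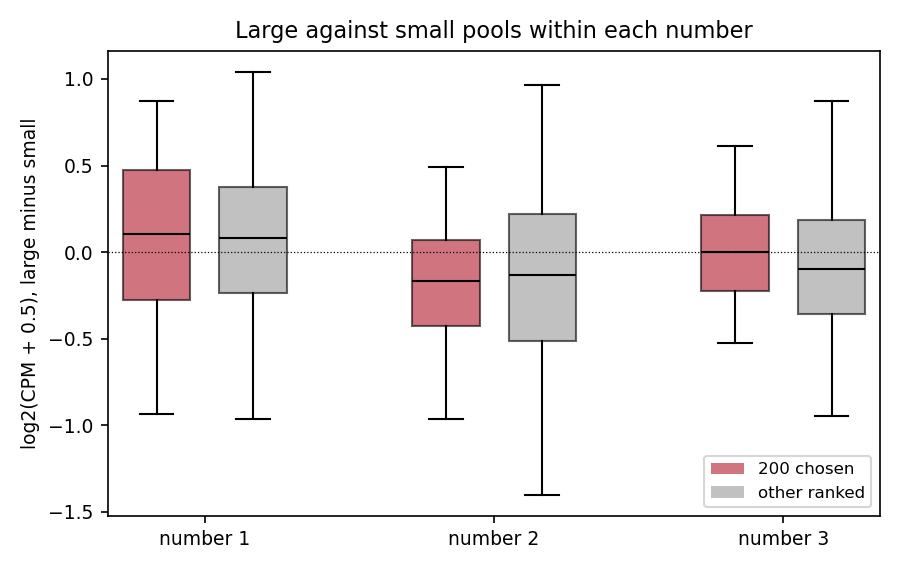
Difference of log2(CPM + 0.5) between the large and the small pool (vertical) within each replicate number, for the 200 chosen coding sequences (red, left of each pair) and the other ranked rows (grey, right). Boxes span the quartiles with the median, and whiskers run from the 5th to the 95th percentile. The red medians are 0.10, -0.17 and 0.00 for numbers 1, 2 and 3.

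Of the members of smallest p in each direction, none passed. HSB_liver_CDS_21125 stood at 1.31, 14.8 and 35.3 CPM in large pools 1, 2 and 3, against 0.337, 7.39 and 17.8 CPM in small pools 1, 2 and 3. The large pool exceeded the small one within every number, while the groups as a whole overlapped (log2 fold change 1.17, SE 1.40, edgeR adjusted p = 1.0, and 1.23, SE 0.26, adjusted p = 0.93 with the block). HSB_liver_CDS_1923 stood at 1.13, 7.53 and 17.0 CPM in large pools 1, 2 and 3, against 0.450, 6.57 and 6.59 CPM in small pools 1, 2 and 3 (log2 fold change 1.11, SE 1.19, edgeR adjusted p = 1.0, and 1.0, adjusted p = 0.93 with the block).

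In the other direction, HSB_liver_CDS_3357 stood at 0, 3.97 and 10.9 CPM in large pools 1, 2 and 3, against 0.225, 30.4 and 20.9 CPM in small pools 1, 2 and 3. EdgeR gave a log2 fold change of -1.6 (SE 1.65, adjusted p = 1.0), and -1.76 (SE 0.55, adjusted p = 0.93) with the block. HSB_liver_CDS_25828, the least abundant member, stood at 0, 2.3 and 3.92 CPM in large pools 1, 2 and 3, against 0.112, 4.93 and 9.45 CPM in small pools 1, 2 and 3. EdgeR gave a log2 fold change of -1.01 (SE 1.54, adjusted p = 1.0), and -1.13 (SE 0.56, adjusted p = 0.93) with the block.

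Rows next to a member by running number, a property that the rule did not use, were low in number 1 more often than other ranked rows. The running numbers of the 200 spanned 899 to 38042, with a median of 22071, against a median of 19207 over all ranked rows. Among the 171 ranked rows next to a member but not members themselves, 75 (43.9%) were lower in both pools numbered 1 than in all 4 others, and 34 (19.9%) were so by a ratio over 2. The median ratio of these 171 rows was 0.833, against 0.635 over all ranked rows outside the list. At a distance of 2 to 5 numbers the shares were 32.4% and 9.11% of 527 rows, at 6 to 20 numbers 27.1% and 6.91% of 1389 rows, and over all ranked rows outside the list 26.2% and 6.43% of 11553. The sources used here do not say how the running numbers were assigned. Adjacent numbers may be pieces or copies of 1 gene that share reads, so neighbours are not independent, and no test was made.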

How the data were processed

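Liver RNA of hybrid striped bass was sequenced in 6 libraries, each a pool of fish, and the growth label put 3 in the large and 3 in the small group. The authors deposited 1 table of estimated counts per coding sequence. The tools named, per the submitters' processing notes, are eXpress 1.5.1, DESeq2, Bowtie2 2.3.1 and Trim Galore 0.4.3, with no role or setting stated. The deposited estimated counts were all whole numbers (0 were not), so no rounding was needed, and the sources used here do not name the sequence set they were counted on. Since eXpress shares reads between similar sequences, near-identical copies cannot be assumed to be counted apart.

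CPM were computed from library totals. Contrasts were fitted on the whole table with edgeR 4.0.16 in R 4.3.3 (quasi-likelihood, robust, TMM scaling, filterByExpr, Benjamini-Hochberg adjustment, threshold 0.05), large minus small without and with a block for replicate number, and number 3 minus number 2 with growth as a term. Standard errors were derived from the F statistic. Alternatives were limma 3.58.1 with voom, DESeq2 1.42.0, RLE or no scaling factors, no filter, a threshold of 0.1 and leaving out libraries. The fitting was tested on simulated data.

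The numbers were taken to pair the libraries. Deviations from the growth group means correlated between large and small libraries of the same number at 0.72, 0.19 and 0.59 for numbers 1, 2 and 3, all above 0.1. Large library 3 with small library 2 gave 0.20, and large library 2 with small library 3 gave 0.11, also above 0.1. The values thus do not set the pair numbered 2 apart from these mismatched pairs. Pairing by number rests on the number shared in the description labels and on these values, and no label states it. The titles number the libraries as biological replicates in 1 series across both growth groups. The identifiers printed are the first 2 by rank and the 2 members of smallest p in each direction between large and small fish, with the others named after their values were seen. Running numbers match no gene name, so lists of genes or markers gave no result. The members and lists were chosen with earlier results of these data known.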

Additional observations from a re-analysis of the deposited data

How the results depend on the processing

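In every setting tried, 0 members were called between large and small fish: edgeR without and with the replicate block, DESeq2 without and with it, voom, other scalings, no filter, a threshold of 0.1, each library left out in turn, and both libraries numbered 1 left out. The replicate block changed no other call among the members. These counts cannot show that the members are alike in large and small fish. The choice set number 1 apart within each growth group, which widens the spread in fits that hold number 1 without the block. It also favours rows whose large and small pools lie close, which bears on every setting. Over all coding sequences the count was 0 in edgeR and 1 in DESeq2. DESeq2 with the replicate block called 51, and 8 without both libraries numbered 1, a fit added after seeing the data. The members' median large-minus-small log2 fold change ran from -0.58 to 0.68 when 1 library was left out, where the groups then hold unequal shares of each number, and was 0.56 in voom. In voom HSB_liver_CDS_3357 changed sign to 1.18 and HSB_liver_CDS_25828 to 2.09. With 1 library left out, the log2 fold change ran from 0.053 to 2.45 for HSB_liver_CDS_21125, 0.068 to 1.64 for HSB_liver_CDS_1923, -2.98 to -0.92 for HSB_liver_CDS_3357 and -1.93 to 0.019 for HSB_liver_CDS_25828. The value nearest 0 came without large library 3 for the first 2, without small library 2 for HSB_liver_CDS_3357 and without small library 3 for HSB_liver_CDS_25828. The cause of the change in voom was not tested.

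Between numbers 3 and 2, the members' median stayed between 0.38 and 0.51 in every setting. The 1 member called by edgeR became 3 in DESeq2, 8 without the filter and 0 on total counts alone, and 0 to 1 with 1 library left out. Over all coding sequences, 63 calls became 207 in DESeq2, 347 without the filter, and 0 to 66 with 1 library left out (0 without large library 2). The 63 calls were among 20203 coding sequences tested, and the 207 and 347 among 37503. Without the filter all 8 members called were higher in number 3. Of the 11753 ranked rows that fit called 148 higher and 107 lower. Of the 200 members, 95 were kept when means replaced the lowest and higher values in the ratio, and 123 to 196 with 1 library left out, the fewest without large library 1. Other scalings, pseudocounts and CPM limits, and not leaving out the most abundant rows, kept 163 to 190. Depth limits levels in the pools numbered 1, where 42 and 23 members had 3 counts or fewer in the large and small pool.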

Other observations

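The opposite rule, the lowest CPM of the pools numbered 1 over the highest of the 4 other pools among 12634 rows with a mean of 5 CPM or more in the pools numbered 1, also gave 200 coding sequences. The ratios of the first and last were 49.1 and 4.34 for the lowered 200, against 31.8 and 3.73 for the raised 200. These raised coding sequences took 0.804% and 0.897% of the counts in the large and small pools numbered 1, against 0.117% and 0.103% in those numbered 2 and 0.0712% and 0.0641% in those numbered 3. Both pools numbered 3 lay above both numbered 2 for 18 of them (9%) and below for 45 (22.5%), where 17.5% and 25.9% of the rows ranked by this rule did. The median difference, number 3 minus number 2 on the log2(CPM + 0.5) scale, was 0.53 in large and 0.39 in small fish over the lowered 200, against -0.10 in large and 0.00 in small fish over the raised 200, and the difference between the lists was not tested. Levels of the raised 200 outside number 1 were low, with medians of 0.29 to 1.25 CPM. At such levels the added 0.5 CPM shrinks log2 differences, so the lists are not alike on this scale. By the edgeR fit, the median of number 3 over number 2 was -0.20 (quartiles -1.05 and 0.78) over 199 of the raised 200. It was 0.44 (quartiles 0.22 and 0.69) over the lowered 200. By running number, 17 of the lowered 200 had a direct neighbour within their own list, as had 12 of the raised 200. No background was computed for these counts, and the lists come from different sets of rows, so neither count can be called high or low.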
